A study of Homo sapiens with 2 samples.

Results

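The genes described here belong to the Notch pathway, 10 in all: the receptors NOTCH1, NOTCH2 and NOTCH3, the ligands JAG1, JAG2 and DLL1, the target genes HES1, HEY1 and NRARP, and the coactivator MAML2. They were taken by name, with no threshold on their values but with earlier results of these arrays known, and are represented by 26 of the 41097 probe sets that were paired with a single gene, or 10 of 19775 genes. The cells were H322c, an established line from a human non-small cell lung cancer (NSCLC). In the treated culture they received 1 µM of gefitinib, which inhibits the kinase of the epidermal growth factor receptor (EGFR), and in the control culture 0.1% DMSO, the solvent of the drug. Both cultures were in RPMI medium with serum, were plated 24 hrs before the addition and were harvested for total RNA on day 4. Each condition was measured on 1 Affymetrix U133 Plus 2.0 array, so that no replicate and no test is available, and every difference below is that between these 2 arrays of 1 cell line. With so few arrays the precision of each value is limited.

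Notch is a receptor that one cell uses to read a ligand on the surface of its neighbor. Binding of a Jagged or Delta ligand exposes the receptor to ADAM10 and then to the γ-secretase complex, and the freed intracellular domain enters the nucleus, where it joins the DNA-binding protein RBPJ and a Mastermind coactivator such as MAML2 and turns on genes of the HES and HEY families. In the airway epithelium the pathway is known for holding cells in the secretory rather than the ciliated fate. Transcript levels were measured here, not cleavage of the receptors.

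The array reads a transcript with sets of short oligonucleotide probes, called probe sets, and the deposited values were MAS5 signals on a linear scale. Signals under 100 were set to 100 on both arrays, a value referred to as the floor. A probe set was counted as measured where it reached the floor on at least 1 array, and a gene was represented by its brightest measured probe set. A difference was counted from 2-fold. Because there were no replicates, the spread of the measurement was taken from genes read by several probe sets: within such a gene the log2 ratios had an SD of 0.54 (4610 genes, using probe sets that neither array put under the floor). It does not include the spread between cultures.

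Of the 10 genes, 9 were measured, each of them with both signals above the floor at its brightest probe set, and DLL1 was not. MAML2 (3.75-fold), JAG2 (2.72-fold) and NOTCH3 (2.04-fold) were at least 2-fold higher, 3 of 9 genes, against 13.3% of all 11223 measured genes. HES1 (3.24-fold) was the 1 gene at least 2-fold lower, against 6.2% of all measured genes. The remaining 5 stayed within 2-fold: NOTCH2 and NRARP differed by more than the spread, and NOTCH1, JAG1 and HEY1 by less. The median log2 ratio of the 9 genes was 0.32, that of all measured genes 0.12, and the members ran from -1.70 for HES1 to 1.91 for MAML2.

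**Figure D1:**
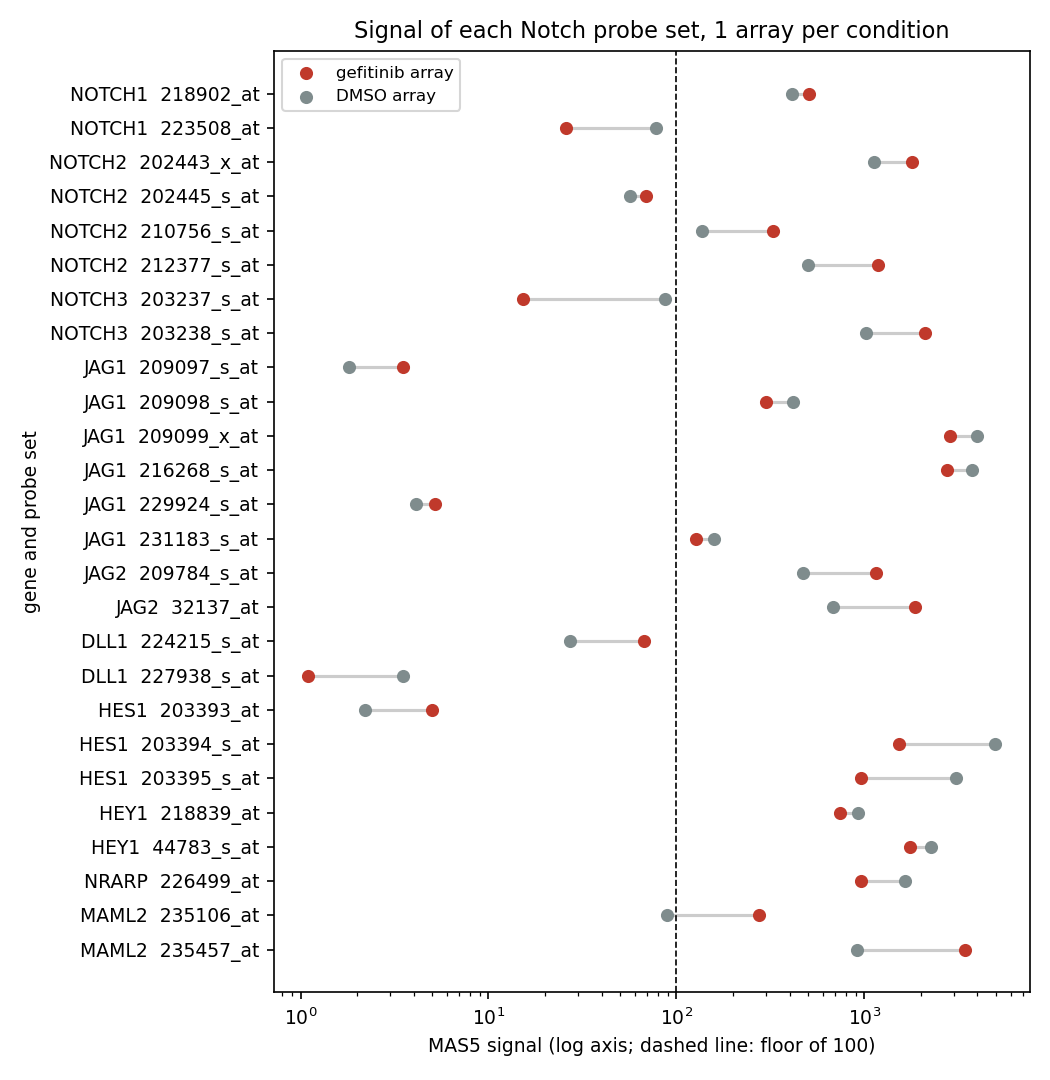
MAS5 signal (horizontal log axis) of the 26 probe sets of the Notch genes on the gefitinib array (red) and the DMSO array (grey), 1 array per condition, with the floor of 100 as a dashed line. Of these probe sets 18 reached the floor, and the longest lines to the right of it are those of HES1, with the red point on the left, and of MAML2, with the red point on the right.

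HES1, a basic helix-loop-helix repressor and the most widely used transcriptional readout of the pathway, had the largest difference downward. At 203394_s_at its signal was 1538 with gefitinib and 4981 with DMSO, 3.24-fold lower (log2 ratio -1.70). A second probe set, 203395_s_at, gave 957 with gefitinib and 3086 with DMSO, 3.23-fold lower (log2 ratio -1.69). The pair therefore differed by 0.006 on the log2 scale, and the ratio at the brighter probe set was 3.13 times the spread in size. Ranked by log2 ratio, HES1 was number 184 from the lowest of 11223 measured genes. Its remaining probe set, 203393_at, had signals of 5.0 with gefitinib and 2.2 with DMSO, under the floor on both arrays.

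NRARP, an ankyrin-repeat protein that is induced by Notch and limits the Notch intracellular domain, was lower by less than 2-fold. Its only probe set, 226499_at, had a signal of 956 with gefitinib and 1644 with DMSO, 1.72-fold lower (log2 ratio -0.78), a difference larger than the spread of 0.54. HEY1, a repressor related to HES1, was lower by less than that spread. At 44783_s_at its signal was 1744 with gefitinib and 2274 with DMSO (log2 ratio -0.38), and at 218839_at it was 742 with gefitinib and 925 with DMSO (log2 ratio -0.32). The log2 ratios of the 3 targets were below 0 at each of their 5 measured probe sets, but only HES1 passed 2-fold. Of all 11223 measured genes, 4823 had a log2 ratio below 0.

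The stretch before the start site of HES1 is shown because it holds 2 copies of the core sequence recognized by RBPJ, and that of NRARP because this target holds none in the same window. Promoter sequences were available from RefSeq (GRCh38.p14) for 8 of the 10 genes and not for DLL1 and HEY1, and the 250 bases before the start were searched on both strands for TGGGAA, the RBPJ core, and for CACNAG, the N-box to which HES1 itself binds. Capitals mark TGGGAA.
HES1, plus strand, chr3:194135898-194136147: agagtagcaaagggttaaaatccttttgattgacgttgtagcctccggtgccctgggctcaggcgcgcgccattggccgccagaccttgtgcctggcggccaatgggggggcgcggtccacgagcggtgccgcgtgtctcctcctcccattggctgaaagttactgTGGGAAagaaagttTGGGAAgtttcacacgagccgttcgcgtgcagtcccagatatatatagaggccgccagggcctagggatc
NRARP, minus strand, chr9:137302272-137302521: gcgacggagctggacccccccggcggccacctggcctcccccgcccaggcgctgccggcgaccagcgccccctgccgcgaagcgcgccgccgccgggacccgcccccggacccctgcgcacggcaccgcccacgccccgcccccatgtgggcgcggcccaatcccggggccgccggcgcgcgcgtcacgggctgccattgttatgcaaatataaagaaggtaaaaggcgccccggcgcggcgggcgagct

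In HES1 the copies of TGGGAA lie 84 to 79 and 70 to 65 bases before the start, both on the plus strand, and the first is part of the longer GTGGGAA. Of 35116 promoters in the table, 20.8% held TGGGAA at least once in the same 250 bases, 2.9% held it at least 2 times and 5.43% held GTGGGAA. Among the 8 Notch genes with a sequence, HES1 was the only one with a match to TGGGAA. The N-box was found 3 times in HES1, 2 times in MAML2 and 1 time in NOTCH3, and in 32.0% of all promoters. A match describes these letters and is not evidence of binding.

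MAML2, one of the Mastermind proteins that hold the Notch intracellular domain and RBPJ together on DNA, had the largest difference upward. The signal of 235457_at was 3433 with gefitinib and 914.5 with DMSO, 3.75-fold higher (log2 ratio 1.91), number 307 from the highest of 11223 measured genes. At 235106_at it was 277 with gefitinib and 88.7 with DMSO. The DMSO signal of this probe set was under the floor, so that it was at least 2.77-fold higher. MAML2 was thus higher at both of its probe sets, by 3.53 times the spread at the brighter one.

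The log2 ratios of the 3 receptors were above 0 at their brightest probe sets, as were those of 6399 of all 11223 measured genes. Only NOTCH3 passed 2-fold, and NOTCH1 lay within the spread. NOTCH3 had a signal of 2093 with gefitinib and 1025 with DMSO at 203238_s_at, 2.04-fold higher (log2 ratio 1.03). This value stands close to the 2-fold limit and on a single probe set, since 203237_s_at had signals of 15.3 with gefitinib and 87.3 with DMSO, both under the floor. NOTCH3 fell short of 2-fold, with log2 ratios from 0.84 to 0.975, when the arrays were quantile normalized, corrected by lowess or scaled to spiked-in bacterial transcripts, and had 0.995 as log2 of the signal plus 50.

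NOTCH2 was represented by 3 measured probe sets that did not give the same size. Its brightest, 202443_x_at, had a signal of 1797 with gefitinib and 1129.7 with DMSO, 1.59-fold higher (log2 ratio 0.67). At 212377_s_at it was 1182 with gefitinib and 499 with DMSO, 2.37-fold higher (log2 ratio 1.24), and at 210756_s_at it was 328 with gefitinib and 136 with DMSO, 2.41-fold higher (log2 ratio 1.27). The remaining one, 202445_s_at, was under the floor, with 69.0 for gefitinib and 56.4 for DMSO. The gene was therefore past 2-fold at 2 of its 3 measured probe sets and not at the one that stands for it. The suffix _x_at marks probes that can hybridize to other transcripts, and NOTCH2 has near-identical partial copies in the genome, the NOTCH2NL genes, so the share of each in these signals is uncertain. A probe set assigned to NOTCH2 and 4 of these copies together, 227067_x_at, had 1814 with gefitinib and 1663 with DMSO (log2 ratio 0.12). One assigned to NOTCH2NLA alone, 214722_at, had 2169 with gefitinib and 649 with DMSO (log2 ratio 1.74).

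NOTCH1 differed by less than the spread. Its measured probe set, 218902_at, had a signal of 510.0 with gefitinib and 410.0 with DMSO (log2 ratio 0.32), and the other, 223508_at, was under the floor on both arrays, with 25.9 for gefitinib and 77.8 for DMSO. At the brightest probe sets the order of the log2 ratios was NOTCH3, NOTCH2 and NOTCH1, but NOTCH2 stood above NOTCH3 with the mean over its probe sets (1.06) and without the _x_at probe set (1.24). The neighbors NOTCH3 and NOTCH2, and likewise NOTCH2 and NOTCH1, lay closer together than the spread of 0.54 at their brightest probe sets.

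**Figure D2:**
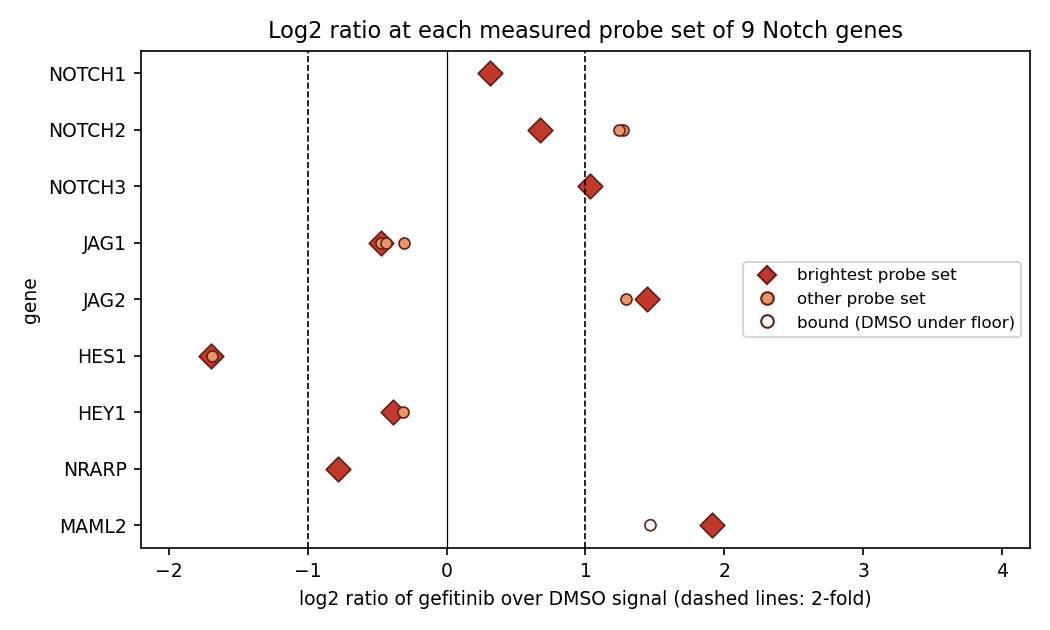
Log2 ratios of gefitinib over DMSO on the horizontal axis, at the 18 measured probe sets of 9 Notch genes, 1 array per condition. Diamonds are the brightest probe set of a gene, points the others, and the open point of MAML2 is a bound because its DMSO signal was under the floor; the receptors, JAG2 and MAML2 lie to the right of 0 and JAG1, HES1, HEY1 and NRARP to the left.

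Among the ligands, the Jagged proteins differed in direction. JAG2 had a signal of 1857 with gefitinib and 683 with DMSO at 32137_at, 2.72-fold higher (log2 ratio 1.44), and of 1152 with gefitinib and 471 with DMSO at 209784_s_at, 2.45-fold higher (log2 ratio 1.29). Both probe sets were past 2-fold. JAG1, by contrast, was lower at each of its 4 measured probe sets, by less than the spread. The brightest, 209099_x_at, had a signal of 2863 with gefitinib and 3970 with DMSO, 1.39-fold lower (log2 ratio -0.47). At 216268_s_at JAG1 had 2747 with gefitinib and 3725 with DMSO (log2 ratio -0.44), and the log2 ratios at 209098_s_at and 231183_s_at were -0.48 and -0.31. These 4 values lay within 0.17 of each other on the log2 scale, and none overlapped with the values of JAG2. Another 2, 209097_s_at and 229924_s_at, had signals of at most 5.2 on either array.

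DLL1, the Delta ligand of the group, was not measured. Its signals were 67.3 with gefitinib and 27.0 with DMSO at 224215_s_at, and 1.1 with gefitinib and 3.5 with DMSO at 227938_s_at. No difference is counted for DLL1, since a signal under the floor does not show whether a transcript was present. In all, 8 of the 26 probe sets were under the floor on both arrays, with a highest signal of 87.3, and 17 were at or above it on both. Of the 18 that were measured, 7 were at least 2-fold higher and 2 at least 2-fold lower, against 12.1% and 7.26% of all 20172 measured probe sets with a single gene. Probe sets of 1 gene read the same transcripts and are not independent.

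**Figure D3:**
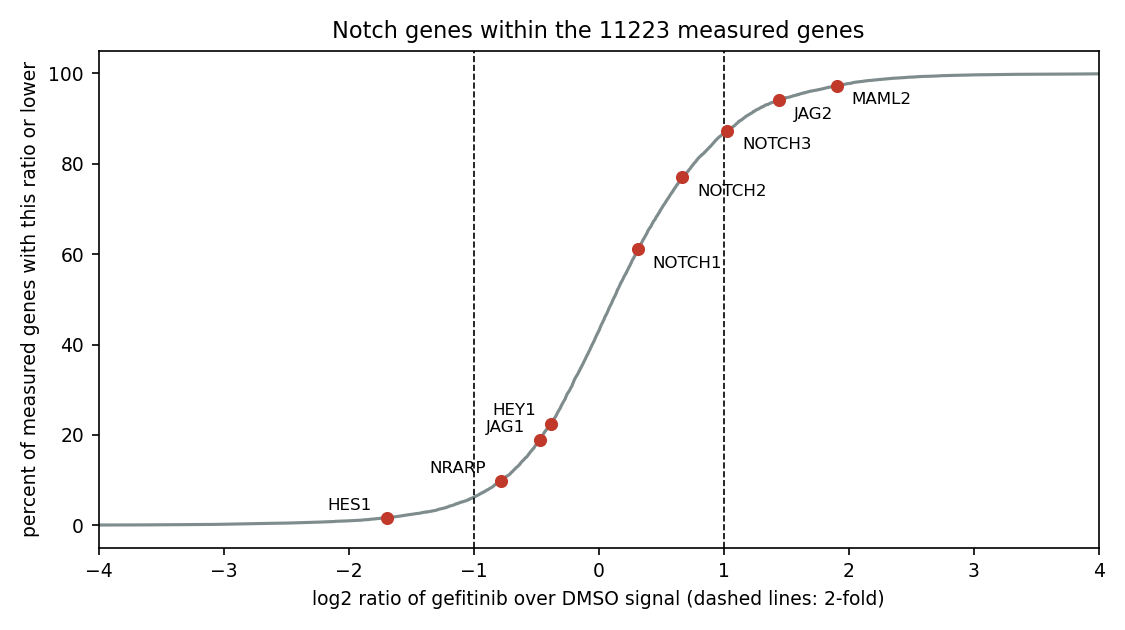
Percent of the 11223 measured genes (vertical axis) with a given log2 ratio of gefitinib over DMSO signal or a lower one (horizontal axis), with the 9 measured Notch genes in red and 2-fold as dashed lines. HES1 lies at 1.6% and NRARP at 9.8%, and NOTCH3, JAG2 and MAML2 at 87.3%, 94.0% and 97.3%.

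No scaling of the arrays turned the sign of any of these values. Spike-ins, control probe sets and GAPDH each moved all signals of an array by a constant factor, whereas quantile normalization and lowess correction moved single genes by unequal amounts, NOTCH1 to a log2 ratio of 0.13 and 0.12 and HES1 to -1.68 under both. Relative to the deposited values, the median log2 ratio of all measured genes moved by -0.18 when the arrays were scaled to the spiked-in transcripts, by 0.13 when they were centered on 100 control probe sets and by 0.17 when they were scaled to GAPDH. Over the deposited scaling and the 5 others tried, the log2 ratio of HES1 ran from -1.88 to -1.52, that of NRARP from -0.97 to -0.61, HEY1 from -0.57 to -0.21 and JAG1 from -0.66 to -0.30. The log2 ratio of MAML2 ran from 1.72 to 2.08, JAG2 from 1.25 to 1.62, NOTCH3 from 0.84 to 1.21, NOTCH2 from 0.48 to 0.85 and NOTCH1 from 0.12 to 0.49. Of the 3 that lay within the spread of 0.54 as deposited, NOTCH1 stayed within it under all of these scalings. With spike-in scaling JAG1 (log2 ratio -0.66) and HEY1 (-0.57) exceeded the spread, and NOTCH2, which exceeded it as deposited, did not (0.48).

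**Figure D4:**
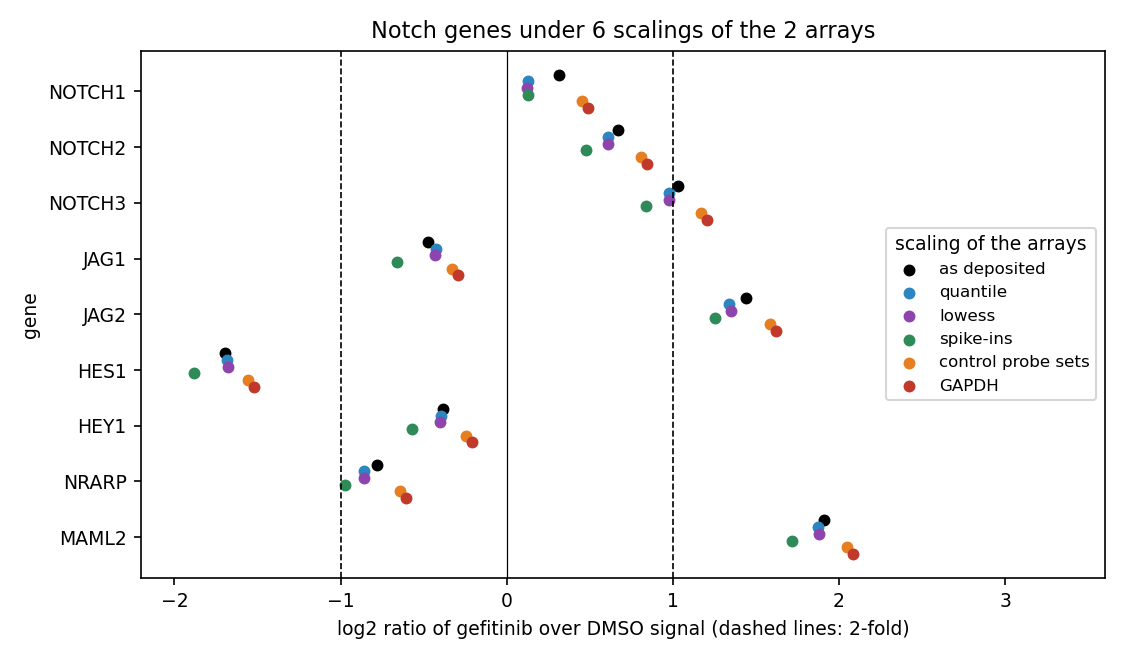
Gefitinib over DMSO signal as log2 ratio (horizontal axis) for the 9 measured Notch genes at their brightest probe set under the deposited scaling and 5 others, 1 array per condition, with 2-fold as dashed lines. Each gene stays on its side of 0, and only NOTCH3 crosses a dashed line, at 0.84 with the spike-ins and 1.21 with GAPDH.

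The other genes of the pathway were taken from a list of 69, of which 65 had a probe set of their own and 53 were measured. At least 2-fold higher were 13 (24.5%), against 13.3% of all measured genes, and at least 2-fold lower were 3 (5.66%), against 6.2%. Among genes that neither array put under the floor, 12 of 52 were higher (23.1%, against 12.2% of all such genes) and 3 were lower (5.77%, against 6.24%). Their median log2 ratio was 0.29, against 0.12 for all measured genes.

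Of 5 measured genes for the maturation of the receptor, 2 were at least 2-fold higher and none lower, against 13.3% and 6.2% of all measured genes. POGLUT1, which adds O-glucose to the EGF-like repeats of Notch, had 883 with gefitinib and 191 with DMSO at 222681_at, 4.61-fold higher, and a log2 ratio of 1.94 at its second probe set. LFNG, the fringe glycosyltransferase that extends O-fucose and changes the response of Notch to its ligands, had 2298 with gefitinib and 533 with DMSO at 228762_at, 4.31-fold higher (log2 ratio 2.11). At its dimmer probe set, 215270_at, LFNG was at least 1.2-fold higher, with 119.9 for gefitinib and 63.0 for DMSO. POFUT1, which adds the O-fucose, was 1.97-fold higher and RFNG, a second fringe enzyme, 1.66-fold higher. FURIN, the convertase that processes the receptor precursor, had a log2 ratio of -0.32, and MFNG was not measured.

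Of 3 measured genes for the endocytosis of ligands, 2 were at least 2-fold higher (13.3% of all measured genes were). NEURL1B, a ubiquitin ligase for the endocytosis of ligands, had 718 with gefitinib and 174 with DMSO, 4.13-fold higher (log2 ratio 2.05). MIB2 was 2.39-fold higher at its brightest probe set, but its others had log2 ratios of 0.27 and 0.49, and the probe sets of MIB1 ran from -0.17 to 1.195 with the brightest at 0.14, whose sign changed with the scaling (-0.05 to 0.32). Among ligands outside the Jagged and Delta families with signaling activity, DLK2, an inhibitory Delta-like protein, was 2.67-fold higher (1043 with gefitinib and 390 with DMSO), and DNER, a neuronal transmembrane ligand, was 2.90-fold lower (248 with gefitinib and 718 with DMSO). EGFL7 was 1.69-fold higher. Of 3 measured ligands in this list, 1 passed 2-fold in each direction, against 13.3% (higher) and 6.2% (lower) of all measured genes. NOTCH4, DLL3, DLL4, DLK1 and NEURL1 were under the floor on both arrays.

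Of the 7 measured genes for the cleavage of the receptor, 2 were at least 2-fold higher and none at least 2-fold lower, against 13.3% and 6.2% of all measured genes. APH1B, a γ-secretase subunit, had 445 with gefitinib and 127 with DMSO at 221036_s_at, 3.49-fold higher (log2 ratio 1.80), and its second probe set was at least 2.89-fold higher. NCSTN, or nicastrin, the subunit that receives the substrate, was 2.12-fold higher (2307 with gefitinib and 1087 with DMSO). The log2 ratios of the others were 0.45 for APH1A, 0.47 for ADAM17, 0.37 for ADAM10, 0.29 for the catalytic subunit PSEN2 and -0.47 for PSENEN. The probe sets of ADAM10 ran from -0.48 to 0.37, those of ADAM17 from -0.15 to 0.47 and those of APH1A from -0.16 to 0.45, so that no direction can be given for these 3 genes.

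RBPJ, the DNA-binding protein through which all of the receptors act, was lower by less than 2-fold. It had 2344 with gefitinib and 3680 with DMSO at 211974_x_at (log2 ratio -0.65), and a log2 ratio of -0.18 at 207785_s_at. Of the coactivators, MAML3 was 2.15-fold higher at its only measured probe set, 242794_at, with the others under the floor on both arrays. MAML1 was 1.37-fold higher, a log2 ratio of 0.46 that is less than the spread of 0.54. The log2 ratios of the 3 Mastermind genes were thus above 0, that of MAML2 being the largest. Of all 11223 measured genes, 6399 were above 0. CREBBP, an acetyltransferase that Mastermind proteins recruit, was 2.40-fold higher at its brightest probe set, and its others gave only bounds, with log2 ratios of at least 0.01 and 0.47. Its relative EP300 was 1.77-fold higher. KAT2B had a log2 ratio of -0.54, and that of SNW1, 0.005, changed sign with the scaling. In this group 2 of 7 genes were at least 2-fold higher and none lower, against 13.3% and 6.2% of all measured genes. With the mean over its probe sets CREBBP was within 2-fold (log2 ratio 0.58).

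Of the 12 measured co-repressor genes, 1 was at least 2-fold higher (8.33%, against 13.3% of all measured genes) and none lower. It was TLE2, a Groucho protein of the kind that HES factors recruit, with 3153 for gefitinib and 862 for DMSO at 40837_at, 3.66-fold higher. At 204431_at TLE2 had a log2 ratio of 2.43. The other Groucho genes were within 2-fold, with log2 ratios of -0.71 for TLE3, -0.37 for TLE4 and 0.22 for TLE1, whose probe sets ran from -0.39 to 0.82.

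Among genes that limit or recycle the receptor, ITCH and DTX4 stood on opposite sides. ITCH, a ubiquitin ligase that targets Notch among other proteins, had 736 with gefitinib and 3301 with DMSO at 209744_x_at, 4.49-fold lower (log2 ratio -2.17), number 88 from the lowest of all measured genes. Its 6 measured probe sets were all lower, with log2 ratios down to -2.17 and up to -0.20. DTX4, a Deltex ligase, had 436 with gefitinib and 79.1 with DMSO and was at least 4.36-fold higher. The endocytic adaptor NUMBL was 1.56-fold higher, DTX2 had a log2 ratio of -0.82 and FBXW7, which marks the intracellular domain for degradation, -0.12 at its brightest probe set, which changed sign with the scaling, and up to 0.83 at others.

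The further genes listed as targets did not share a direction. Whether each of them responds to Notch in these cells was not tested. SOX9, a transcription factor that Notch induces in several tissues, had 418 with gefitinib and 2440.1 with DMSO at 202936_s_at, 5.84-fold lower (log2 ratio -2.55), and a log2 ratio of -2.89 at 202935_s_at. It was number 52 from the lowest of all measured genes. HES6 and HES4 had log2 ratios of -0.945 and -0.41, whereas HES2 was 2.29-fold higher and HEYL 1.59-fold higher. SNAI2, an E-box repressor, had 835 with gefitinib and 228.5 with DMSO, 3.66-fold higher. MYC was 1.97-fold higher, GATA3 1.26-fold higher, and CCND1 had log2 ratios of 0.00 and -0.75 at its 2 probe sets. HES5, HES7 and HEY2 were under the floor on both arrays. Of 9 measured genes in this group, 2 were at least 2-fold higher (22.2%, against 13.3% of all measured genes) and 1 at least 2-fold lower (11.1%, against 6.2%).

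**Figure D5:**
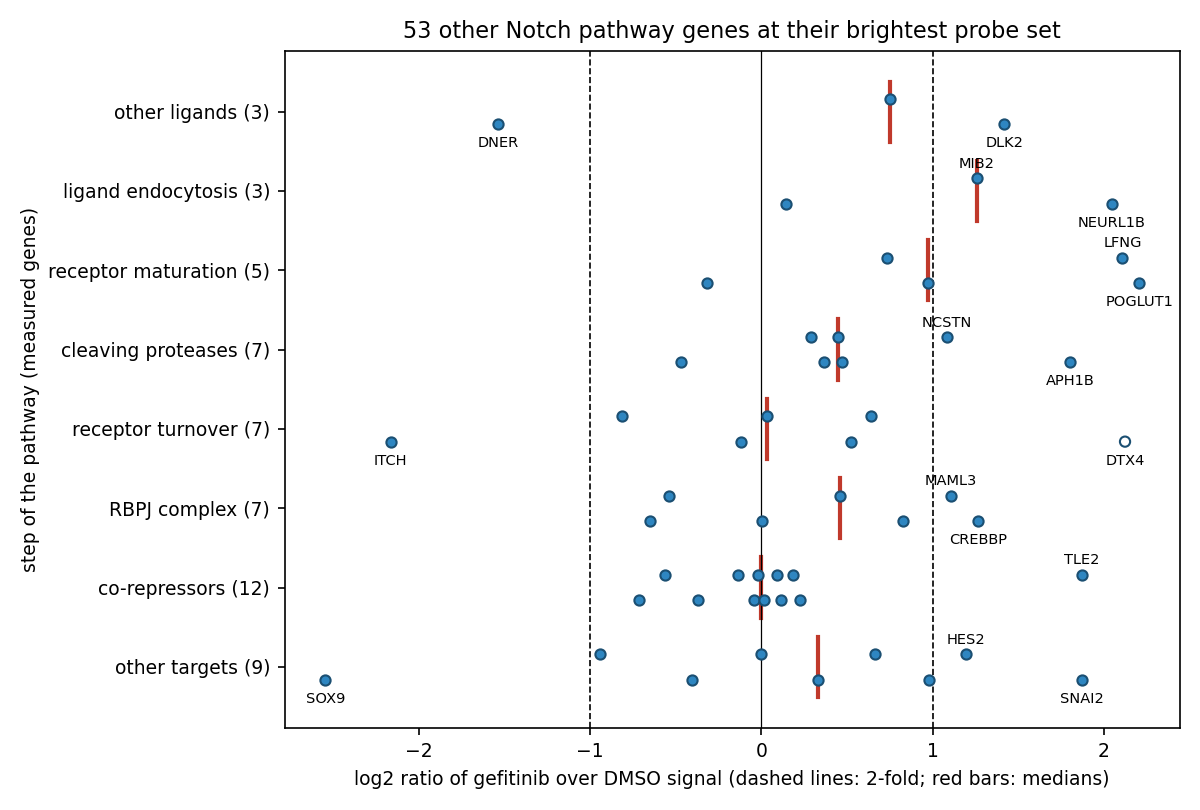
Gefitinib over DMSO signal as log2 ratio (horizontal axis) for 53 other Notch pathway genes at their brightest probe set, by step of the pathway, 1 array per condition. Red bars are the medians of a step, names mark genes past 2-fold, and the open point of DTX4 is a bound; ITCH, DNER and SOX9 are the 3 genes beyond the dashed line on the left.

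Several of these pathway genes crossed the 2-fold limit with the scaling of the arrays. MAML3 and HES2 were within 2-fold with quantile normalization and lowess correction, and MAML3 and NCSTN with spike-in scaling. HES6 and DTX2 were more than 2-fold lower under all 3 of these. POFUT1 and MYC passed 2-fold with centering on control probe sets and with GAPDH scaling, and EP300 with GAPDH scaling alone.

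Genes of the airway cell types that Notch is known to balance were set beside these values. Of 10 ciliated cell genes, 5 were measured and 3 were at least 2-fold higher, against 13.3% of all measured genes. Among the 4 that neither array put under the floor, 2 were higher, against 12.2% of all such genes. The 3 were MYB, a transcription factor of the early ciliated program among other roles (2054 with gefitinib and 97.6 with DMSO, at least 20.5-fold), CAPS (3097 with gefitinib and 544 with DMSO, 5.69-fold) and the ciliary regulator RFX3 (2.09-fold, but within 2-fold with quantile normalization, lowess correction or spike-in scaling). FOXJ1, which drives the assembly of motile cilia, was under the floor on both arrays, as were DNAI1 and TPPP3. Of 10 secretory cell genes, 3 were measured, and only AGR2 was above the floor on both arrays at its brightest probe set. SCGB1A1, the club cell secretoglobin, was at least 4.6-fold higher (460.0 with gefitinib and 60.2 with DMSO). The goblet cell factor SPDEF was at least 2.55-fold higher (255.5 with gefitinib and 97.0 with DMSO). AGR2 had a log2 ratio of -0.10 at its brightest probe set, which changed sign with the scaling (-0.29 to 0.13). At 228969_at, however, AGR2 had 8888 with gefitinib and 4995 with DMSO (log2 ratio 0.83), so that its probe sets did not share a direction. MYB, SCGB1A1 and SPDEF reached the floor only with gefitinib at their brightest probe sets, so that they could be counted only if they were higher. A second probe set of SPDEF, 213441_x_at, had 249 with gefitinib and 101 with DMSO, 2.46-fold higher. At 214404_x_at SPDEF was at least 1.49-fold higher, and 213442_x_at and 214403_x_at were under the floor on both arrays. All probe sets of SPDEF carry the suffix _x_at. With a floor of 200 the log2 ratios of SPDEF and RFX3 were bounds of 0.35 and 0.27. MUC5AC and MUC5B were under the floor on both arrays, as were all 5 neuroendocrine genes that had a probe set, and KRT15 was the 1 measured gene of the basal list, at 2.09-fold higher (log2 ratio 0.87 with spike-in scaling). Bulk RNA cannot tell a change in the number of cells of a type from a change in the RNA per cell.

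The arrays carried the epithelial genes that the label of the line implies. EPCAM, CDH1, KRT7, KRT8, KRT18 and KRT19 had signals between 7141 and 38923 at their brightest probe sets, with log2 ratios from -0.77 to 0.19. Of the leukocyte list, all 5 genes with a probe set were under the floor, with summed signals of 116 for gefitinib and 124 for DMSO. Of 5 endothelial genes 3 were under the floor on both arrays, and the summed signal was 612 with gefitinib and 181 with DMSO, of which VWF made up 496 with gefitinib and 30.0 with DMSO and PECAM1 78.0 with gefitinib and 128 with DMSO. Of 6 fibroblast genes 5 were under the floor, and COL1A1 accounted for most of the summed signal of 1012 with gefitinib and 517 with DMSO. Both red cell genes that had a probe set stood near or under the floor (at most 111). The part of these transcripts in the Notch values was not tested. Of the RNA quality controls, the 3'/5' ratio was 1.01 with gefitinib and 0.95 with DMSO for GAPDH, and 1.36 with gefitinib and 1.19 with DMSO for ACTB.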

How the data were processed

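Total RNA of H322c cells was hybridized to 1 array per condition. The authors deposited signal intensities on a linear scale, made with MAS5 per the submitters' processing notes (version not given in the sources used here), a method that subtracts background, averages robustly over the probes of a set and scales whole arrays. Both arrays had a 2% trimmed mean of 500.1, the mark of such scaling, which would hide a change shared by most transcripts. Of 54675 probe sets, 41097 were paired with a single gene by the platform annotation, and 41043 of these received a current symbol through the gene identifiers of GRCh38.p14. The 1801 with several genes and 11777 with none were not used to name genes.

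Intensities under 100 were raised to that floor before log2 ratios of gefitinib over DMSO were formed. All probe sets of the 10 genes are given. Of the other pathway genes, those at least 2-fold different are named, together with all proteases and RBPJ cofactors. For lists of cell type genes, counts and the genes past 2-fold are given. EGFL7, RFNG, FURIN and other genes within 2-fold were named after their values were seen. The members and lists were chosen with earlier results of these data known. No p-value was computed. The calculations were tested on simulated data whose folds were known, with less noise than the spread above and no planted fold close to 2. That test does not show how reliable calls near 2-fold are.

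The alternatives were quantile normalization, centering on 100 control probe sets, scaling to the 3' GAPDH control or to spike-ins, lowess correction (span 0.3), floors of 50 and 200, adding 50 to each signal in place of a floor, the mean over probe sets, the probe set brightest on either array, no _x_at probe sets, and a limit of 1.5-fold or 3-fold. Python 3.11.15, numpy 2.4.6, pandas 2.3.3, statsmodels 0.14.6 and matplotlib 3.10.9 were used. The paper's RT-PCR, immunoblot and growth experiments were not analysed here.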

Additional observations from a re-analysis of the deposited data

How the results depend on the processing

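Each of the 9 measured Notch genes kept the sign of its log2 ratio under the 11 alternatives of scaling, floor and probe set. The number of members at least 2-fold higher was 3 as deposited and between 2 and 4 under these alternatives, with NOTCH3 lost under 4 of them and NOTCH2 gained with the mean over probe sets or without _x_at probe sets, where its log2 ratio was 1.24. HES1 was the 1 member at least 2-fold lower in each. Over the same alternatives the share of all genes at least 2-fold higher ran from 7.47% to 17.9% (13.3% as deposited). The share at least 2-fold lower ran from 3.49% to 9.25% (6.2% as deposited). The median of the members, 0.32, lay between 0.12 and 0.49. With a limit of 1.5-fold, 4 members were higher and 2 lower (NRARP beside HES1), and 20 of 53 other pathway genes were higher and 7 lower, against 26.4% and 15.0% of all measured genes. With a limit of 3-fold, 1 member was higher (MAML2) and 1 lower (HES1), and 7 other pathway genes were higher and 2 lower, against 4.78% and 2.05%. With quantile normalization, spike-in scaling or lowess correction, 5 of 53 other pathway genes were at least 2-fold lower in place of 3, while the share of all genes, 6.2% as deposited, was 7.26%, 9.25% and 7.47% under these. Of all measured genes past 2-fold, 68.2% were higher as deposited, 59.7% with quantile normalization, 57.6% with lowess correction, 50.5% with spike-in scaling, 78.3% with centering on control probe sets and 80.4% with GAPDH scaling. No paired analysis was possible because there is 1 array per condition. Signals near the floor limit what the dim probe sets can show, DLL1 among them, which reached a floor of 50 with gefitinib only (log2 ratio at least 0.43).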
